A study of Homo sapiens with 3 samples.

Results

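The HOX genes of clusters A to D were measured together with MEIS1 to MEIS3 and the PBX genes in HT29 cells, a human colorectal cancer line with mutated APC and BRAF, treated with a linderapyrone derivative. Members were the probes whose gene symbol in the platform annotation is a numbered HOXA, HOXB, HOXC or HOXD gene, MEIS1 to MEIS3 or a numbered PBX gene. The rule gave 41 probes for 35 genes, out of 24460 gene probes and 18639 named genes on each array. Of these genes 10 belonged to HOXB, 9 to HOXC, 9 to HOXD, 3 to MEIS and 3 to PBX. HOXA2 stood alone for its cluster, and the other HOXA genes were not analysed here as members. A single probe measured 29 of the genes and several probes the other 6.

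Cells received DMSO alone, the usual solvent, or the derivative at 5 µM or 20 µM, for 24 h, and their total RNA was hybridised to 1-colour Cy5 arrays. The sample titles give these doses in mM, but the treatment labels give µM, which is used here. Each of the 3 groups was 1 array of 1 cell line, so nothing could be tested. The spread between cultures is unknown, and precision is limited by having so few arrays. In bulk RNA, fewer cells expressing a gene and less RNA per cell cannot be told apart.

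HOX genes encode homeodomain transcription factors that give cells their position along the body axis, and their order along each cluster follows the order of their domains along that axis. The hindgut and colon epithelium keep HOX expression in the adult. PBX and MEIS proteins are homeodomain proteins of the TALE class: PBX binds DNA jointly with HOX proteins, and MEIS binds PBX, helps it into the nucleus and joins the complex on DNA. HOXB7 and HOXB9 have been described in colorectal and breast cancers as promoters of growth and migration.

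RefSeq promoter windows on GRCh38.p14, from 250 bases before to 50 bases after the annotated start, were found for 18 of the 35 genes. The windows of 3 genes are shown because these genes stood farthest from DMSO in one direction or the other among those with a window, and because each holds a match to the joint PBX and HOX motif, written TGATNNAT. They run 5′ to 3′ on the gene's own strand, which is the minus strand in each case. Capitals mark every match, on either strand, to that motif or to TGACAG (MEIS), TCAAAG (TCF/LEF), TTTATG (CDX) or CCAAT (the CCAAT box).
MEIS2 chr15:37098647-37098946: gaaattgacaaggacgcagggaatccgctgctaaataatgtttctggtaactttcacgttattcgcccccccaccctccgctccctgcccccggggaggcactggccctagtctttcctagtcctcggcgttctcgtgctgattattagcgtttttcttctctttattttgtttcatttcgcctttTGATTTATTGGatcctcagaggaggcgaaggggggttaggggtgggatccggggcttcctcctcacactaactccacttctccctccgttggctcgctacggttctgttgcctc
HOXB1 chr17:48530962-48531261: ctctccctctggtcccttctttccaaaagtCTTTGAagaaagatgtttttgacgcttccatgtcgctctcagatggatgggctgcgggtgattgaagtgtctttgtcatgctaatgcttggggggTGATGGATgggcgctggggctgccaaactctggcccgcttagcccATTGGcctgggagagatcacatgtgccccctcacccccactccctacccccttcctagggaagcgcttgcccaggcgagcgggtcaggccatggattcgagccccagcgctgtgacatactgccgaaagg
HOXA2 chr7:27102634-27102933: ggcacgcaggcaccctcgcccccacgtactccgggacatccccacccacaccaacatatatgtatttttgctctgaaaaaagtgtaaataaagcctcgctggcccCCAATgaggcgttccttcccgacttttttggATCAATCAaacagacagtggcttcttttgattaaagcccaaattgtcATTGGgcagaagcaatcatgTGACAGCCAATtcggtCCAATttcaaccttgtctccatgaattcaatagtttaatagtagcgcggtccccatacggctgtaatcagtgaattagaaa

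The PBX and HOX motif began 64 bases before the start in this MEIS2 window and overlapped a CCAAT box there. It began 125 bases before the start in HOXB1 and 114 bases before it, in reverse, in HOXA2. In mouse, the region upstream of Hoxb1 is known to be bound by Hoxb1 protein together with Pbx. It was found in 4 of the 19 windows of the members, the fourth being that of HOXD11, against 7.42% of all 34943 windows of this length. HOXC4 and HOXC5 share 1 window, which was counted once. The MEIS motif was found in 3 of the 19 windows, those of HOXA2, HOXD4 and PBX3, and in 15.8% of all windows. The CCAAT box was found in 12 of 19 windows and in 34.6% of all. The TCF/LEF motif was found in 2 of 19, HOXB1 and HOXD12, against 12.9% of all, and the CDX motif in 1, HOXD8, against 10.6%. A second MEIS2 window, at chr15:37099057-37099356, held none of the motifs. A match describes these letters only, and binding was not measured. The motifs were chosen after the values were seen.

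Expression above the blank spots was examined first. A probe was called detected when its spot signal, the median scanner brightness, exceeded the mean plus 2 SD of the 480 blank and negative control spots of that array. This threshold was 82.5 with DMSO, 79.4 at 5 µM and 80.2 at 20 µM, and the median gene probe had a signal of 117, 107 and 110. Members were detected at about the rate of all genes, with 32 of 35 with DMSO, 31 at 5 µM and 33 at 20 µM, that is 91.4%, 88.6% and 94.3%, against 88.0%, 87.5% and 87.5% of all 18639 genes. Signals above 2 times the blank mean were less common. They were found for 9 of the 35 members on each array, 25.7%, against 39.9%, 36.6% and 37.98% of all genes. Most detected members thus stood close to the blanks. Signals of different probes do not rank genes against each other, since each probe binds with its own strength.

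The HOXB cluster held most of the members well above the blanks. All 10 HOXB genes were detected on each array and 6 reached 2 times the blank mean on each. In DMSO and at 5 µM these were HOXB2, HOXB3, HOXB5, HOXB6, HOXB7 and HOXB9. At 20 µM HOXB1 was above that level and HOXB5 was below it. HOXB4, HOXB8 and HOXB13 were detected at lower signals, between 87.5 and 124 over the 3 arrays.

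In HOXC, 8 of 9 genes were detected on all 3 arrays, but only HOXC6 reached 2 times the blank mean. HOXC6, a gene of the middle of its cluster, had signals of 301 with DMSO, 278 at 5 µM and 307 at 20 µM. HOXC4, HOXC5 and HOXC9 lay between 98.8 and 132. HOXC10, HOXC11, HOXC12 and HOXC13, at the posterior end, lay between 81.8 and 96.5, within 20 units of the blank mean on every array. HOXC8 was not detected on any array.

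In HOXD, 6 of 9 genes were detected on all 3 arrays and 0 reached 2 times the blank mean. HOXD1 had signals of 142, 132 and 137 in order of dose, while its other probe was not detected. HOXD4, HOXD9 and HOXD13 lay between 95.1 and 109, and HOXD3 and HOXD11 between 85.3 and 90.3. HOXD8 and HOXD10 were each detected on 2 arrays, at signals within 5 units of the blank mean. HOXD12 was detected by neither of its probes. HOXA2, which is an anterior gene of its cluster, was detected on all arrays.

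Among the TALE partners MEIS2 and PBX2 reached 2 times the blank mean on every array. PBX3 was detected on all arrays with both of its probes, PBX4 with its single probe at 91.4 to 95.5. MEIS3 lay between 94.5 and 101. MEIS1, a cofactor of HOXA9 in leukaemia, was detected in DMSO at 84.8 and at 20 µM at 81.5, and not at 5 µM, at 79.2.

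**Figure D1:**
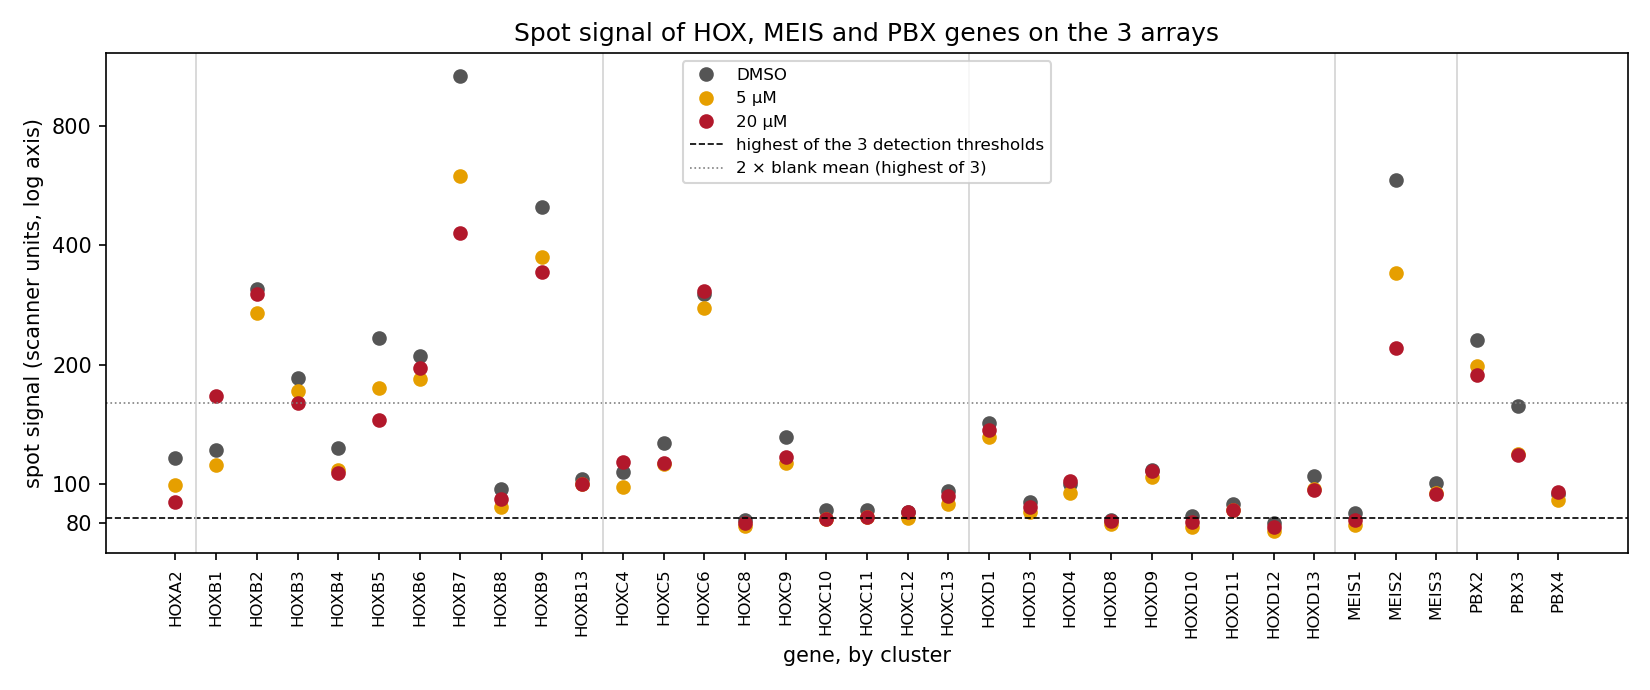
Spot signal of each member on the 3 arrays (log axis, scanner units), grouped by cluster, with 1 point per array and the probe that stands for the gene. HOXB7 and MEIS2 have their lowest point at 20 µM and their highest in DMSO, while most HOXC and HOXD genes lie between the detection threshold (dashed) and 2 times the blank mean (dotted).

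The first comparison set 20 µM against DMSO. At 20 µM, MEIS2 and HOXB7 were the members lower by 2-fold or more, HOXB5 was lower by a smaller amount, and HOXB1 was higher. Ratios are log2 differences of normalized signal. An offset of 50 was added to each signal and draws the ratios of dim probes towards 0, so the authors' deposited value table, without that offset, is given beside them. Of the 32 members detected on both arrays 2 were lower by 2-fold or more, against 0.324% of all 16062 genes, and 0 were higher by as much, against 0.442%. By the authors' deposited table, 4 members were lower by 2-fold or more, HOXA2, HOXB5, HOXB7 and MEIS2, against 1.58% of all genes, and HOXB1 alone was higher, against 1.36%. At 1.5-fold that table gave 5 lower members, against 6.93%, and 2 higher ones, against 5.6%. The median log2 ratio of the 32 members was -0.02, against 0.01 for all genes. Of the members 18 were below 0, 56.2%, against 47.1% of all genes.

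MEIS2, a TALE cofactor that stabilises HOX and PBX complexes, had a spot signal of 585 with DMSO, 340 at 5 µM and 221 at 20 µM. Each step of the dose had the lower signal. Its log2 ratio of 20 µM to DMSO was -1.32, 2.49-fold lower. Among the ratios of the 16062 genes detected on both arrays it was rank 9 from the lowest. In the authors' deposited table its values were 239, 152 and 76.3, which is 3.14-fold lower at 20 µM than in DMSO. A single probe measured MEIS2, so no other probe could be set beside it. At 20 µM its signal lay just below that of the brightest empty position of the array, 224, and 1 member, HOXB7, was 2-fold apart when only genes above such positions were kept.

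HOXB7 had a spot signal of 1068 with DMSO, 596 at 5 µM and 430 at 20 µM, again lower at each step. Its log2 ratio of 20 µM to DMSO was -1.18, 2.26-fold lower and rank 19 from the lowest. The authors' deposited table gave 468, 301 and 188, which is 2.495-fold lower at 20 µM. HOXB7, like MEIS2, was measured by a single probe. The log2 ratios of MEIS2 and HOXB7 were larger in size than the technical SD of a single log2 ratio, 0.14. That SD was taken from 2007 genes with 2 detected probes and leaves out the spread between cultures. Probes of 1 gene can differ by more than it, as those of HOXB2 did, at 0.12 and -0.73.

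HOXB5 had signals of 233 with DMSO, 175 at 5 µM and 145 at 20 µM. Its log2 ratio of 20 µM to DMSO was -0.62, or 1.53-fold lower, and the authors' deposited table gave 2.004-fold. HOXB9 had signals of 499.5, 373 and 343, with a log2 ratio of -0.39. HOXB5, HOXB7 and HOXB9, which specify trunk and posterior positions, thus had their lowest signal at 20 µM and their highest in DMSO. HOXB6, which lies between HOXB5 and HOXB7, had signals of 210, 184 and 196 and a log2 ratio of 0.05. By 1.5-fold or more 3 members were lower at 20 µM, HOXB5, HOXB7 and MEIS2, against 1.84% of all genes.

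HOXB1, the most anterior gene of the cluster and a hindbrain gene in the embryo, went the other way. Its signal was 122 with DMSO, 112 at 5 µM and 167 at 20 µM, with DMSO and 5 µM close together and 20 µM above both. The log2 ratio of 20 µM to DMSO was 0.67, or 1.59-fold higher, and the authors' deposited table gave 20.1, 19.9 and 47.7, 2.38-fold higher. It was the 1 member at least 1.5-fold higher, against 1.94% of all genes. The 20 µM signal was below that of the brightest empty position of its array, 224, and the DMSO signal below that of its array, 134.

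HOXB2 was measured by a pair of probes that disagreed. The probe that stands for the gene had signals of 310 with DMSO, 270 at 5 µM and 301 at 20 µM, and a log2 ratio of 0.12. The other probe had 278, 181 and 159, and a log2 ratio of -0.73, 1.66-fold lower at 20 µM. Both probes were above the detection threshold on every array, so the direction of HOXB2 depended on the probe. HOXB3 had a log2 ratio of -0.08, HOXB4 of -0.16, HOXB8 of -0.03 and HOXB13 of 0.03.

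The ratios were also taken by cluster. At 20 µM the HOXB ratios ran between -1.18 and 0.67, with a median of -0.06 over 10 genes. Those of HOXC ran between -0.10 and 0.20, with a median of 0.00 over 8 genes (0.000761), and those of HOXD between -0.07 and 0.12, with a median of 0.02 over 7 genes. HOXC6, the HOXC gene well above the blanks, had a log2 ratio of 0.19. Most HOXC and HOXD probes lay near the blanks, where the offset draws ratios to 0. In the authors' deposited table the HOXC ratios ran between -0.38 and 0.68, with HOXC12 at 0.68 and HOXC4 at 0.56, and the HOXD ratios between -0.21 and 0.43. The technical SD of dim probes in that table was 0.32. The authors' values of HOXC12 were 2.55, 2.9 and 4.1 in order of dose.

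**Figure D2:**
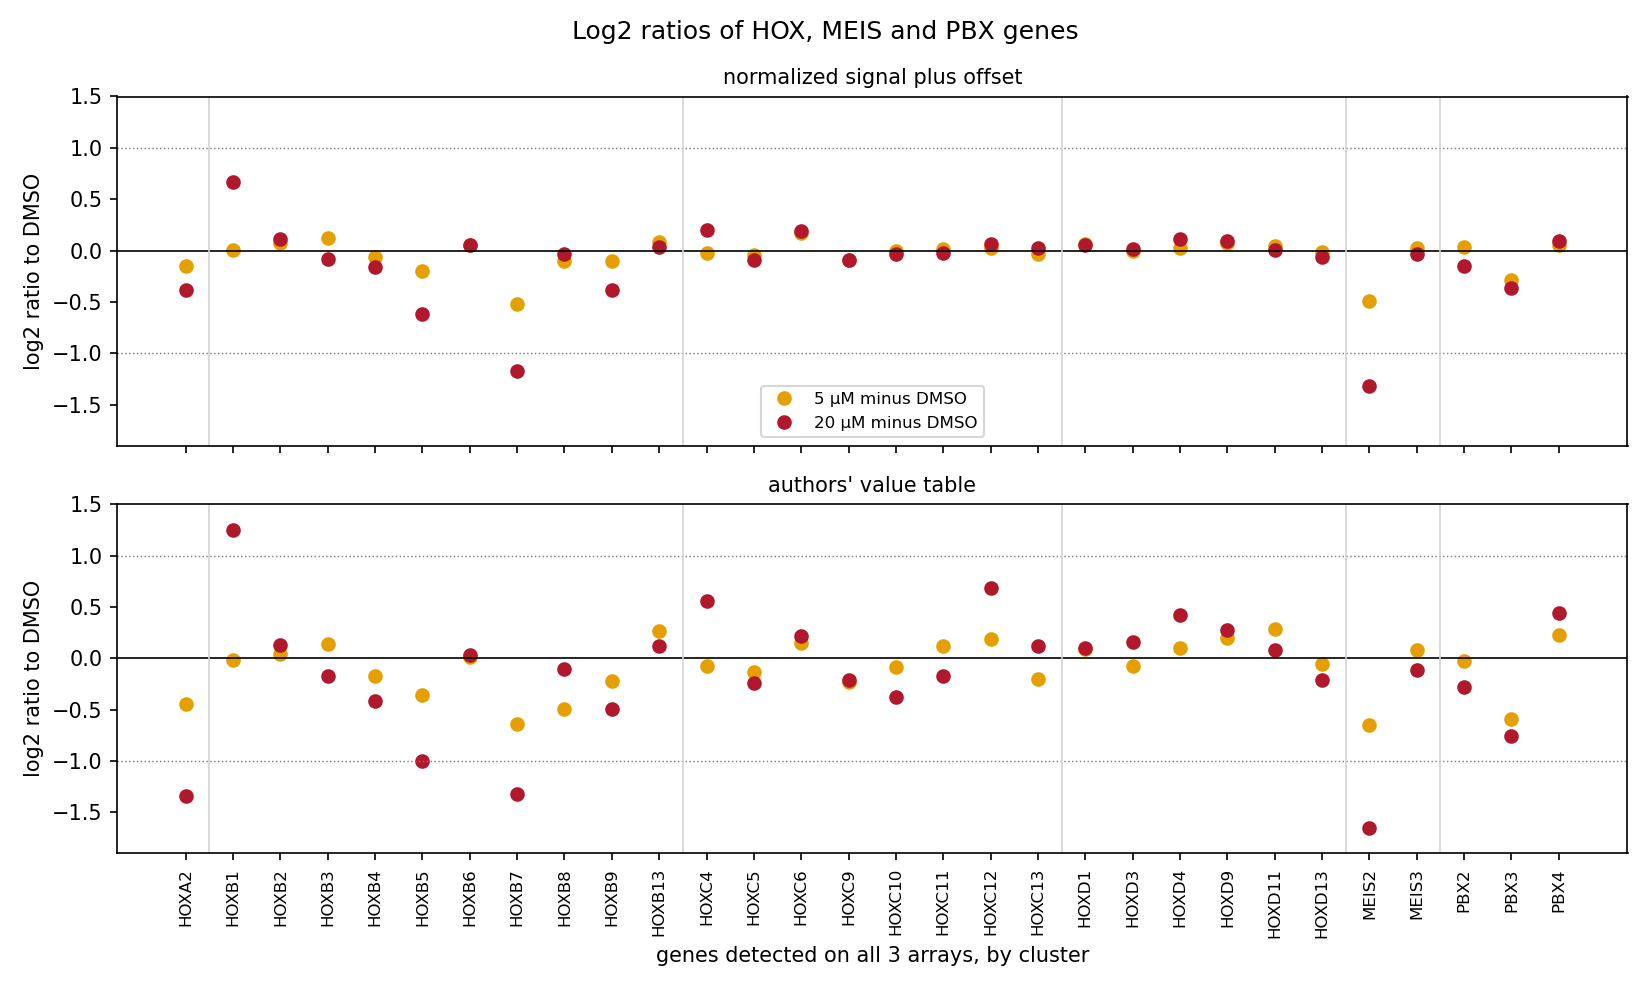
Log2 ratio to DMSO of the 30 members detected on all 3 arrays, at 5 µM and 20 µM, from normalized signal plus offset (upper panel) and from the authors' deposited value table (lower panel). Dotted lines mark 2-fold. MEIS2 and HOXB7 lie below the lower line at 20 µM in both panels, and HOXA2, HOXB5 and HOXB1 pass 2-fold at 20 µM in the lower panel only.

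HOXA2, a hindbrain and neural crest patterning gene, had signals of 117 with DMSO, 99.4 at 5 µM and 90.5 at 20 µM. The signal was lower at each step and close to the blanks at 20 µM. Its log2 ratio of 20 µM to DMSO was -0.38 with the offset and -1.34 in the authors' deposited table, where its values were 17.4, 12.8 and 6.9. Ratios of HOXA2, HOXB4, HOXB8, HOXB13, HOXC4, HOXC12, PBX3, PBX4, MEIS1 and MEIS3 are given after their values were seen.

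PBX2, a broadly expressed DNA-binding partner of HOX proteins, had signals of 231 with DMSO, 199 at 5 µM and 188 at 20 µM. Its log2 ratio of 20 µM to DMSO was -0.15, close to the technical SD of 0.14. PBX3 had signals of 157, 119 and 119, with both treated arrays below DMSO, and a log2 ratio of -0.37 at 20 µM. The other PBX3 probe had signals of 107, 96.3 and 95.9 and a log2 ratio of -0.11. PBX4 had a log2 ratio of 0.10, MEIS1 of -0.02 and MEIS3 of -0.04. In the authors' deposited table MEIS1 stood at -0.10 and MEIS3 at -0.11, where probes this dim had a technical SD of 0.32.

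**Figure D3:**
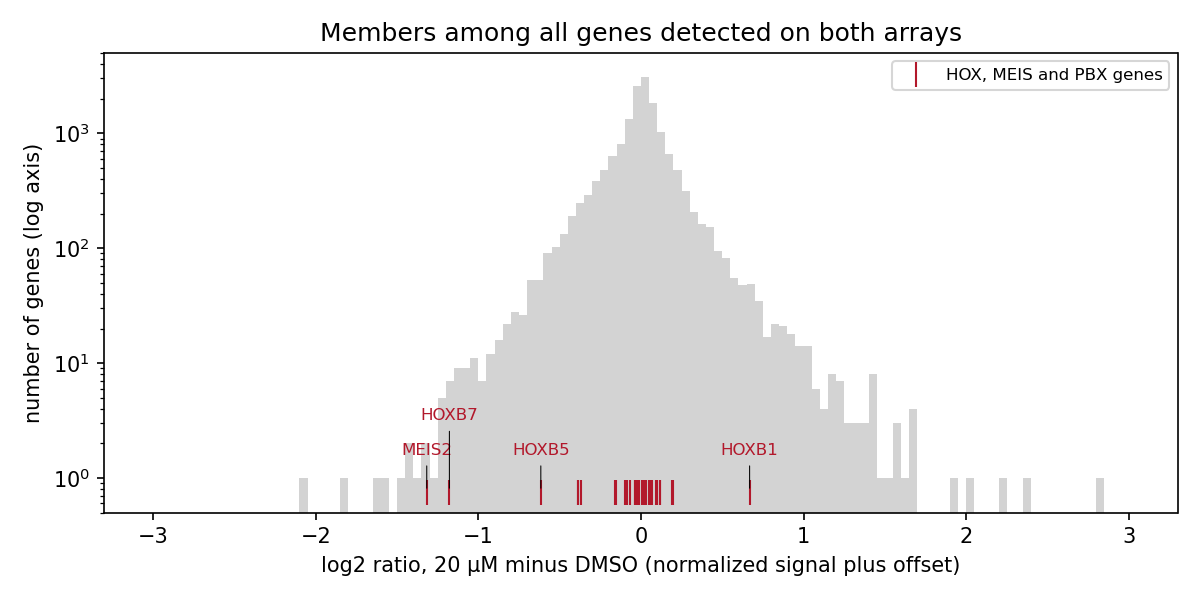
Log2 ratios of 20 µM to DMSO for all 16062 genes detected on both arrays (grey, counts on a log axis), with the 32 members as red ticks. MEIS2 and HOXB7 lie far out in the left tail. HOXB5 lies in the same tail nearer 0 (rank 251 from the lowest) and HOXB1 in the right tail (rank 15829). Most members lie near 0.

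Genes inside and beside the HOXB cluster were set in chromosomal order, from the gene order of GRCh38.p14, after the values were seen. HOXB5, HOXB7 and HOXB9 were lower at 20 µM. HOXB6, between HOXB5 and HOXB7, had a log2 ratio of 0.05, and of 0.03 in the authors' deposited table. HOXB8, between HOXB7 and HOXB9, lay near the blanks, at -0.03, and at -0.11 in the authors' deposited table. PRAC1, which lies between HOXB9 and HOXB13, had a log2 ratio of 0.04. Beyond HOXB1, SKAP1 had a ratio of -0.11, SNX11 of 0.10 and the heterochromatin protein gene CBX1 of -0.56. Beyond HOXB13, the measured genes were TTLL6, which was not detected, CALCOCO2 at 0.38 and ATP5MC1, a subunit of ATP synthase, at -0.56. Neighbours on both sides thus held values of either sign.

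**Figure D4:**
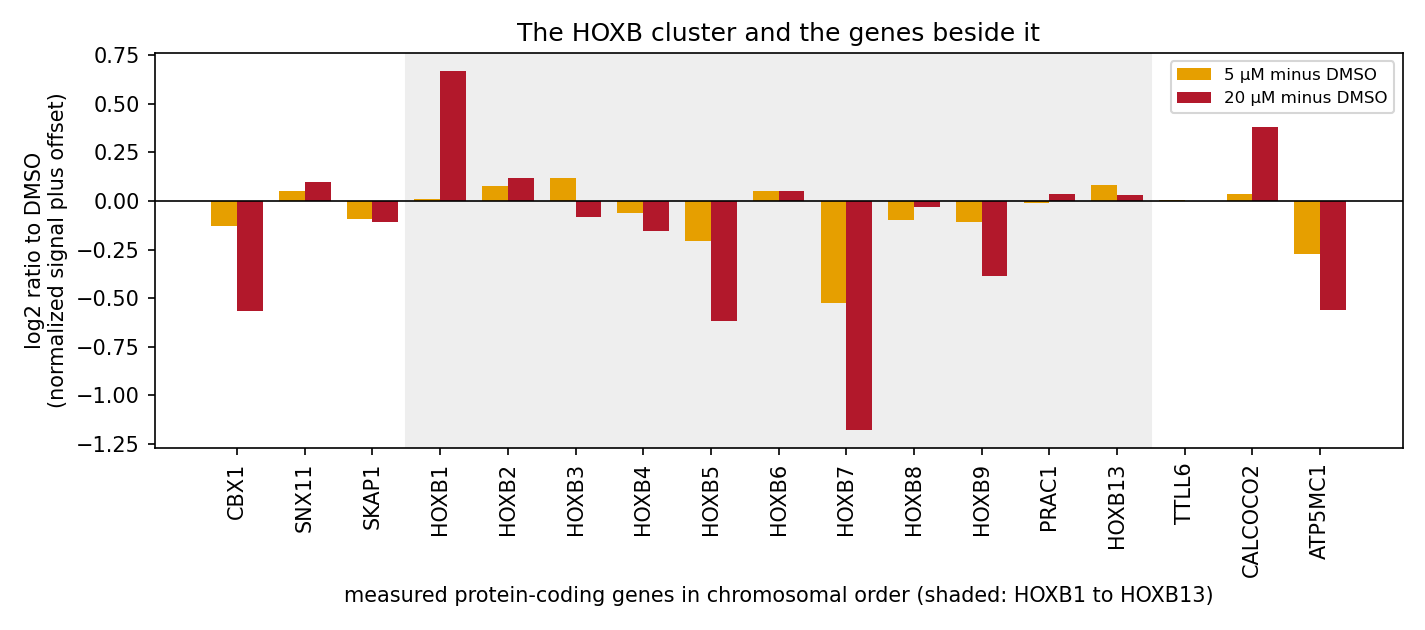
Log2 ratio to DMSO (normalized signal plus offset) at 5 µM and 20 µM of the measured protein-coding genes of the HOXB cluster (shaded) and the 3 measured genes on each side, in chromosomal order. HOXB7 has the lowest bars and HOXB1 the highest at 20 µM, with HOXB6 near 0 beside HOXB7. HOXB8 is a dim probe, whose bars the offset draws to 0.

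The second comparison set 5 µM against DMSO. MEIS2 and HOXB7 were again the lowest members. Of 30 members 0 were higher by 2-fold or more, against 0.0498% of 16075 genes, and 0 were lower by as much, against 0.00622%. At 1.5-fold the counts were also 0, against 0.386% of all genes higher and 0.0871% lower. Of the members 15 were below 0, against 47.9% of all genes. HOXB7 had a log2 ratio of -0.52, 1.44-fold lower, rank 34 from the lowest, and MEIS2 one of -0.50, 1.41-fold lower, rank 48. By the authors' deposited table, 3 members were lower by 1.5-fold or more, against 2.79% of all genes, with HOXB7 at 1.56-fold, MEIS2 at 1.57-fold and PBX3 the other. That table gave 0 members higher by 1.5-fold, against 1.75%, and 0 past 2-fold, against 0.286% higher and 0.311% lower. PBX3 stood at -0.29 and HOXB5 at -0.20, and the other HOXB2 probe at -0.43. The highest member was HOXC6 at 0.17, and HOXB1 stood at 0.01. The median over the members was 0.00 (0.00129), against 0.00 for all genes (0.00429), and the technical SD at this dose was 0.11. The ratios at 5 µM and 20 µM share their single DMSO array.

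The third comparison set 20 µM against 5 µM, which leaves the DMSO array out. MEIS2 had a log2 ratio of -0.82, 1.77-fold lower at 20 µM, and HOXB7 one of -0.66, 1.57-fold lower. HOXB1 was 1.58-fold higher at 20 µM, with a ratio of 0.66. HOXB5 stood at -0.41, HOXB9 at -0.28, HOXB3 at -0.20 and PBX2 at -0.19. Of 31 members 0 were 2-fold apart, against 0.131% of 16036 genes higher and 0.0935% lower. At least 1.5-fold lower were 2 members, against 0.886% of all genes, and at least 1.5-fold higher was 1, against 0.917%. The authors' deposited table had HOXB1 higher by 2-fold or more, against 0.942% of all genes, and 0 members lower by as much, against 0.543%. At 1.5-fold it gave 4 lower members, HOXA2, HOXB5, HOXB7 and MEIS2, against 2.85%, and HOXB1 and HOXC4 higher, against 4.5%. The technical SD of a ratio was 0.12 here.

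Over the 3 arrays 10 of 30 members had a lower normalized value at each step of the dose, 33.3%, against 23.0% of 15920 genes. They were HOXA2, HOXB4, HOXB5, HOXB7, HOXB9, HOXC5, HOXC10, HOXD13, MEIS2 and PBX3. A higher value at each step was found for 8 of 30, 26.7%, against 24.5% of all genes, with HOXB1, HOXB2, HOXB6, HOXC6, HOXC12, HOXD4, HOXD9 and PBX4 among them. The other HOXB2 probe was lower at each step, and HOXB6 turned sign under median scaling, to -0.07 at 5 µM and -0.03 at 20 µM. HOXB1 at 5 µM against DMSO stood at 0.01, and at -0.01 in the authors' deposited table, where its first step was thus not a rise. Both shares were near those of all genes, and several of these genes differed between arrays by less than the technical SD. MEIS1, HOXD8 and HOXD10 were each undetected on 1 array, and the bounds on their ratios were at least 1.03-fold, 1.02-fold and 1.01-fold, too small to read.

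Genes that act with or upstream of HOX genes were described by list. Trithorax and Polycomb proteins maintain and silence HOX chromatin. Of 22 such genes detected at 20 µM and in DMSO, 11 were above 0 and 11 below, against 47.1% of all genes below 0, and the median was -0.01, against 0.01. With the offset, neither this list nor those of TALE genes, upstream regulators, partners and non-coding RNAs held a gene 2-fold apart at 20 µM. Of all genes 0.442% were higher and 0.324% lower by as much. In the authors' deposited table the list genes at least 2-fold apart were CBX7 at -1.49 and HOXA-AS3 at -1.16, both lower. Of all genes that table had 1.58% lower and 1.36% higher by as much. With the offset, the Trithorax and Polycomb genes farthest from 0 were CBX7, KDM1A, EED and ASXL1. CBX7, a Polycomb reader of histone methylation, stood at -0.52 and the demethylase gene KDM1A at -0.52. EED, a core subunit of Polycomb repressive complex 2, stood at -0.48 and ASXL1 at -0.34. CBX7 had signals of 133, 101 and 94.4 in order of dose. Of 7 other TALE homeobox genes detected on both arrays 3 were above 0 and 4 below, with TGIF1, a repressor of retinoid and TGF-beta signalling, at 0.37, TGIF2 at -0.19, PKNOX2 at 0.10 and PKNOX1 at 0.09.

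The upstream regulators CDX and the retinoid receptors drive posterior HOX genes in the embryo. Of 9 genes of this list detected on both arrays 6 were above 0 at 20 µM and 3 below, against 47.1% of all genes below 0. RXRA stood at -0.41, CDX1 at 0.26, RXRB at -0.18 and CYP26A1, which degrades retinoic acid, at 0.14. Of 7 HOX partners and modifiers 6 were below 0, against 47.1% of all genes, with a median of -0.16. HMGB1, a chromatin protein that aids DNA binding of HOX proteins, stood at -0.80, GMNN, which encodes geminin and is a marker of S phase to M phase, at -0.50, PBXIP1 at -0.18 and CUL4A at -0.16. Of 13 listed non-coding RNAs of the clusters 2 were measured, HOXA-AS3 at -0.67 and HOXA-AS2 at -0.31. EVX1 and EVX2, homeobox genes beside the HOXA and HOXD clusters, were not detected on both arrays of any comparison.

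The label of the cells was set against markers. All 10 colon epithelial markers measured, of 11 listed, were detected on each array, against 88.0%, 87.5% and 87.5% of all genes. EPCAM had signals of 9660 with DMSO, 6213 at 5 µM and 7149 at 20 µM. CDX1, at 120, 112 and 130, and CEACAM5, at 96.4, 95.3 and 126, were below 2 times the blank mean on each array. So was CDX2, near the blanks at 92.6, 85.3 and 87.3. The other colon markers were above that level on each array. Of 6 fibroblast markers 2, the collagen genes COL1A1 and COL1A2, were undetected on every array, as were PTPRC of 4 blood markers and PECAM1 and TEK of 7 endothelial and neural markers. The other 4 fibroblast markers were detected on every array, with DCN at 231, 218 and 211 in order of dose and PDGFRB at 148, 138 and 135. So were CD14, at 146, 132 and 122, CD3E and ITGAM among the blood markers. CDH5, VWF, TUBB3 and GFAP were detected on every array, and SNAP25 with DMSO and at 5 µM. The summed signal of the fibroblast markers was 735, 693 and 695 in order of dose, that of the blood markers 399.8, 372 and 363, and that of the endothelial and neural markers 631, 601 and 610. These sums are of raw signals, which were not normalized and include the blank level of each array. The median normalized log2 ratios to DMSO at 5 µM and 20 µM were 0.04 and 0.04 for the detected fibroblast markers. They were 0.03 and -0.04 for the blood markers, and -0.01 and 0.02 for the endothelial and neural ones. DCN stood at 0.20 and 0.04, PDGFRB at 0.09 and -0.04 and CD14 at 0.03 and -0.20. The part of these markers in the values of MEIS2 and HOXB7 was not tested.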

How the data were processed

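Total RNA of 3 HT29 cultures was measured on 1-colour arrays. Per the labels' protocols it was amplified as amino allyl aRNA and coupled to Cy5. Per the file headers, each deposited scanner file holds a spot intensity, the median brightness of the red scan linear and not background-subtracted. The authors also deposited a value table of linear intensity. Each column has a median of 25.0 and follows the scanner signal along a line that meets 0 at 80.0 in DMSO, 77.3 at 5 µM and 77.6 at 20 µM, about the blank level. The sources used here do not say how the authors chose that level.

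Spot signals of all 24460 gene probes and 2996 control or empty spots were corrected with normexp (offset 50) in limma 3.58.1 under R 4.3.3, taken to log2 and quantile normalized over gene probes. Each comparison is 1 array against 1, so alternatives were other corrections, scalings, filters and the authors' table. Tables used Python 3.11.15, numpy 2.4.6 and pandas 2.3.3, plots matplotlib 3.10.9. Detection was the mean plus 2 SD of 480 blank and negative control spots trimmed by 5% at each end. The probe detected on most arrays, then the brightest, stood for a gene. Of the gene probes 21707 had 1 symbol, 0 had several and 2753 had none. Ratios were printed for members above 2 times the blank mean on some array or 1.5-fold apart and, after their values were seen, for some others. The list genes were the 4 farthest from 0 at 20 µM. Members and lists were chosen with earlier results of these data known. Promoter sequences are RefSeq's on GRCh38.p14.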

Additional observations from a re-analysis of the deposited data

Results flagged for a closer look

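Probes for transcripts of the HOXA cluster outside the member rule carried signal above the blanks, a signal that no comparison of the members uses. The HOXA10-HOXA9 readthrough probe had a spot signal of 997 with DMSO, 563 at 5 µM and 523 at 20 µM, with log2 ratios to DMSO of -0.52 at 5 µM and -0.78 at 20 µM. The probe of HOXA10-AS, an antisense RNA of the same region, had 797, 490 and 393, with ratios of -0.40 and -0.88. The brighter of the HOXA-AS3 probes had 210, 167 and 130, with a ratio of -0.67 at 20 µM, and the dimmer one had 105, 94.0 and 89.0, with a ratio of -0.23. HOXA-AS2 had 127, 108 and 101, with a ratio of -0.31. MEIS1-AS3 had 92.5, 88.1 and 88.7, with a ratio of -0.01. These ratios carry the offset. By the authors' deposited table HOXA10-HOXA9 was 1.83-fold, HOXA10-AS 2.03-fold and HOXA-AS2 1.80-fold lower at 20 µM than in DMSO. That table had the brighter HOXA-AS3 probe 2.23-fold and the dimmer one 1.96-fold lower, and MEIS1-AS3 at a log2 ratio of 0.00. Each HOXA probe was lower at each step of the dose, like HOXA2, against 23.0% of 15920 genes. The HOXA-AS3 probes are of the same gene, so they do not count separately. Whether the HOXA10-HOXA9 probe also binds RNA of HOXA9 or HOXA10 was not examined. An antisense RNA and its partner cannot be told apart unless the probe's strand is known, and probe sequences were not used here.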

How the results depend on the processing

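With 1 array per group, no paired analysis was possible because no group had a second sample, and no array could be left out. MEIS2 and HOXB7 kept their direction under all alternatives run. MEIS2 ranged between -1.65 (authors' value table) and -1.06 (no background correction) at 20 µM, and HOXB7 between -1.32 and -1.05 under the same settings. The number of members at least 2-fold apart at 20 µM against DMSO was 2, became 5 in the authors' value table, 4 without an offset (an alternative chosen after seeing the data) and 1 when only spots above the brightest empty spot were kept, where 4 members remained. For 20 against 5 µM it was 0, and became 1 in the authors' value table and 2 without an offset. The members' median at 20 µM turned sign under median scaling, to 0.02. Members detected on all 3 arrays numbered 30, 8 at 2 times the blank mean and 4 above the brightest empty spot. The background column was not used, since it followed the spot signal with Spearman correlations of 0.967, 0.962 and 0.966. HOXB2 turned sign with the mean of its probes, -0.31 at 20 µM. Over all genes at 20 µM, median scaling gave 52 higher and 74 lower at least 2-fold, against 71 and 52, and the authors' values gave 218 and 254. No offset gave 171 and 182, no background correction 44 and 20, an offset of 16 gave 114 and 94, and one of 100 gave 53 and 22. Of 342 other values of single genes under alternatives 262 stayed within the technical SD and 80 moved by more. A turned sign was called only for values at least 2-fold apart in the main setting. Those were MEIS2 and HOXB7 at 20 µM against DMSO, and 0 of their values turned. Among smaller ratios to DMSO the sign turned for HOXB1 and PBX2 at 5 µM and for HOXB2 and HOXB6 at both doses. HOXB2 also turned in 20 against 5 µM.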

Other observations

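The genes beside MEIS2 and the HOXC cluster were read in chromosomal order after the values were seen. On one side of MEIS2, CDIN1 had a log2 ratio of -0.03 at 20 µM against DMSO and DPH6 one of -0.02. NANOGP8, on the same side and near the blanks, had 0.03. On the other side TMCO5A was not detected on any array, SPRED1, an inhibitor of the RAS and ERK pathway, had -0.22 and FAM98B -0.09. MEIS2, at -1.32, stood lower than each detected neighbour, but its rank of 9 from the lowest of 16062 genes puts it below nearly any gene. Beside HOXC, CALCOCO1 had 0.05, ATP5MC2 -0.21, SMUG1 -0.12 and the heterochromatin protein gene CBX5 -0.29. CBX5 had signals of 454 with DMSO, 356 at 5 µM and 334 at 20 µM, and CBX1, the third measured gene beyond HOXB1, had 1517, 1077 and 898.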
